A study of Mus musculus with 41 samples.

Results

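Hippocampal RNA of 5 mice that ranked high in learning and memory was set against that of 14 mice whose ranking was inconsistent, 19 of the 41 mice in the series. Both groups were chosen by their labels alone. All mice were males of the inbred C57BL/6J strain with no transgene or drug, and all went through the same battery of behavioural tests, so that animals of 1 genetic background were compared. The battery began at 10 weeks of age and held 5 cognitive tests with 11 parameters, run as Barnes maze at 10 to 11 weeks, radial maze at 12 to 14 weeks, T-maze at 15 to 19 weeks, fear conditioning at 33 weeks and passive avoidance at 37 to 38 weeks. The hippocampus was collected 1 month later. Mice were ranked by 2 systems, and those put in 1 class by both are labelled high, medium or low. The inconsistent mice are those on whom the systems disagreed. The other mice of the series were 12 medium, 8 low and 2 with incomplete data. The comparison asks whether what was measured in the high mice against ranked mice is also seen against mice that no ranked comparison had used. The same 5 high arrays enter all of these comparisons, which are therefore not independent of each other.

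The hippocampus encodes spatial and contextual memory. Its granule cells in the dentate gyrus and pyramidal cells in the CA fields change the strength of their synapses with experience, and immediate early genes such as Fos and Arc are transcribed within minutes of neuronal activity. Chaperones fold new and damaged proteins in the cytosol, the endoplasmic reticulum and mitochondria, and their genes are induced when unfolded protein accumulates. In the endoplasmic reticulum this induction is the unfolded protein response, in which the factors Atf6 and Xbp1 act on a promoter sequence called the endoplasmic reticulum stress element.

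Each mouse gave 1 Affymetrix array, and levels are log2(intensity + 16) after quantile normalization over all 41 arrays. Differences on this scale understate changes of dim genes. The brighter part of the probe sets, 22519 of 45037, was tested. As a check of the tissue, the mean of the dentate granule markers was 8.29 to 8.37 over the high arrays and 8.21 to 8.47 over the inconsistent arrays, and that of the CA pyramidal markers lay between 8.64 and 8.94 on all 19 arrays. Medium replicate 9 stood apart, with dentate granule markers at 6.35, striatal markers at 9.08 and neocortical markers at 9.08, against 8.02 to 8.47, 7.78 to 8.16 and 7.43 to 7.91 over the other 40 arrays. It stayed in the normalization, the filter and the fit, where it enters the medium mean and the shared spread. Several results that use it are also given with it left out of the fit. Median raw intensities ran from 26.0 to 47.0 over the high arrays and from 25.8 to 55.2 over the inconsistent arrays. The arrays were grouped into 3 sets by the levels of spike-in control probe sets, with limits placed after the values were seen, and these held 0, 1 and 4 high arrays and 3, 2 and 9 inconsistent arrays. High replicate 1 was the high array of the second set. The second inconsistent mouse also carries a description as consistently medium, and stayed in the inconsistent group.

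No probe set was called between high and inconsistent mice at a limma adjusted p under 0.05, so that 0% of 22519 passed. The smallest adjusted p was 0.0659, for Bloc1s2. Medium replicate 9 took part in the normalization and the filter, which were not rerun without it. In the fit it enters this contrast through the shared spread alone, and with it left out limma called 3 probe sets. These were Bloc1s2 and Golga7b, each at an adjusted p of 0.0474, and Rbm18, which is named here after its value was seen. Before adjustment, 2456 probe sets (10.9%) had p under 0.05, of which 1365 (6.06%) were higher and 1091 (4.84%) lower in high mice. With array weights, which give less weight to arrays that vary more, limma called 123 probe sets, 65 higher and 58 lower, and without high replicate 1 it called 5. An exact rank-sum test called 0 probe sets and had 2764 at an unadjusted p under 0.05. The 11628 splits of the 19 arrays limit how small its p can be, so these 0 calls are no separate support. In the same fit, high against medium mice gave 23 calls (0.102%), 12 higher and 11 lower, and high against low mice gave 1 (0.00444%). Without medium replicate 9, high against medium mice gave 11 calls, 9 higher and 2 lower, all among the 23. Inconsistent mice differed from medium mice and from low mice by 0 calls each, with 1068 and 962 probe sets at an unadjusted limma p under 0.05. The 5 high arrays all lay above all 14 inconsistent arrays for 20 probe sets (0.0888%) and below them for 10 (0.0444%).

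Bloc1s2 encodes a subunit shared by complexes that form lysosome-related organelles and position lysosomes. It read 9.19, 9.34, 9.36, 9.36 and 9.20 in the 5 high mice, and from 8.85 over a median of 9.03 to 9.17 in the 14 inconsistent mice. The groups did not overlap. The means were 9.29 ± 0.09 in high mice (SD, n = 5) and 9.02 ± 0.10 in inconsistent mice (SD, n = 14), a log2 difference of 0.27 ± 0.05 (SE), a fold of 1.21 and a limma adjusted p of 0.0659. The exact two-sided permutation test gave p = 8.6e-05, the smallest that 11628 splits of 19 arrays can give. Bloc1s2 was named from comparisons that share the 5 high arrays. This p therefore restates the lack of overlap and gives no separate support. Medium mice read 8.88 to 9.10 and low mice 8.79 to 9.04, so that all 34 inconsistent, medium and low arrays lay below the 5 high arrays. Its adjusted limma p passed the threshold in 10 of the alternative fits, among them those without high replicate 1 (0.0213) or without inconsistent replicates 6 (0.0499), 9 (0.0304) or 14 (0.0280). The difference was 0.28 within the third spike-in set, and 0.09 within the second, which held 1 high and 2 inconsistent arrays.

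The other genes that earlier comparisons with ranked mice had named differed less clearly from the inconsistent mice. Bloc1s2 and these genes are given at the probe set with the smallest p in high against low or medium mice. As the high arrays are shared, this choice favours large differences. Elp4, a subunit of the Elongator complex that modifies transfer RNA, read 7.03, 7.17, 7.10, 6.96 and 7.04 in high mice and 6.55 to 7.16 in inconsistent mice, with a median of 6.72. Inconsistent replicate 1, at 7.16, was the only inconsistent array within the high range, and without it Elp4 passed at a limma adjusted p of 0.00830. With all arrays the log2 difference was 0.33 ± 0.07 (SE) and the limma adjusted p 0.112. Rbm14, an RNA-binding coactivator, read 8.72, 8.66, 8.89, 8.61 and 8.70 in high mice and 8.12 to 8.64 in inconsistent mice, with a median of 8.38. The lowest high array lay below the highest inconsistent arrays, and 12 of 14 inconsistent arrays lay below all high ones. Its log2 difference was 0.34 ± 0.08 (SE), with a limma adjusted p of 0.112, while the other tested Rbm14 probe sets differed by 0.16, 0.09 and -0.07.

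Inip belongs to a repair complex on single-stranded DNA. It read 6.92, 6.92, 6.95, 6.92 and 6.89 in high mice, a narrow range, against 6.41 to 6.91 in inconsistent mice, with a median of 6.70. The log2 difference was 0.22 ± 0.06 (SE), with a limma adjusted p of 0.190 and an exact permutation p of 0.00619. As for Bloc1s2, the permutation p gives no separate support, since Inip was named from comparisons that share the high arrays. Other Inip probe sets differed by 0.24 and 0.06. P4ha2, a subunit of the enzyme that hydroxylates prolines in collagen, read 6.67, 6.70, 6.57, 6.48 and 6.34 in high mice and 5.83 to 6.63 in inconsistent mice, with a median of 6.31. The groups overlapped, and the log2 difference of 0.30 ± 0.10 (SE) had a limma adjusted p of 0.290. Against medium mice, in the same fit, P4ha2 differed by 0.48 for high mice and by 0.18 for inconsistent mice. Without medium replicate 9 these were 0.45 and 0.16. The limma adjusted p of high against medium mice was 0.0494 with that array and 0.0712 without it.

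Of the genes lower in high mice, Ccni, an atypical cyclin, read 10.66, 10.51, 10.59, 10.64 and 10.53 in high mice and 10.60 to 11.02 in inconsistent mice, with a median of 10.82. Of the 14 inconsistent arrays, 12 lay above all high arrays. Its log2 difference was -0.26 ± 0.06 (SE), with a limma adjusted p of 0.112. The brightest Ccni probe set differed by 0.0011, and the others by -0.11 and 0.01. Epb41l1, a protein of the membrane cytoskeleton in neurons, read 7.76, 7.36, 7.18, 7.13 and 7.69 in high mice and 7.29 to 7.97 in inconsistent mice, with a median of 7.69. The groups overlapped, since high replicates 1 and 5 lay at or above the inconsistent median. This gave a log2 difference of -0.23 ± 0.09 (SE), with a limma adjusted p of 0.314. Crocc, which forms the rootlet of cilia, read 6.00, 5.79, 5.94, 6.13 and 5.93 in high mice, against 5.69 to 6.56 in inconsistent mice, with a median of 6.31. Both its lowest and its highest value lay among the inconsistent arrays, and the log2 difference of -0.26 ± 0.11 (SE) had a limma adjusted p of 0.396.

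Set side by side, the inconsistent mice lay near the medium and low mice for some of these genes and between the groups for others. Against medium mice, the inconsistent group differed by 0.04 for Bloc1s2, -0.03 for Inip, 0.06 for Rbm14, 0.03 for Elp4 and -0.04 for Ccni. The values for high against medium mice were 0.31, 0.19, 0.40, 0.35 and -0.30 in that order. For Epb41l1 the inconsistent group differed from medium mice by -0.23 and the high group by -0.47, and for Crocc by -0.20 and -0.47. No difference of the inconsistent group from medium or low mice passed limma's test.

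**Figure D1:**
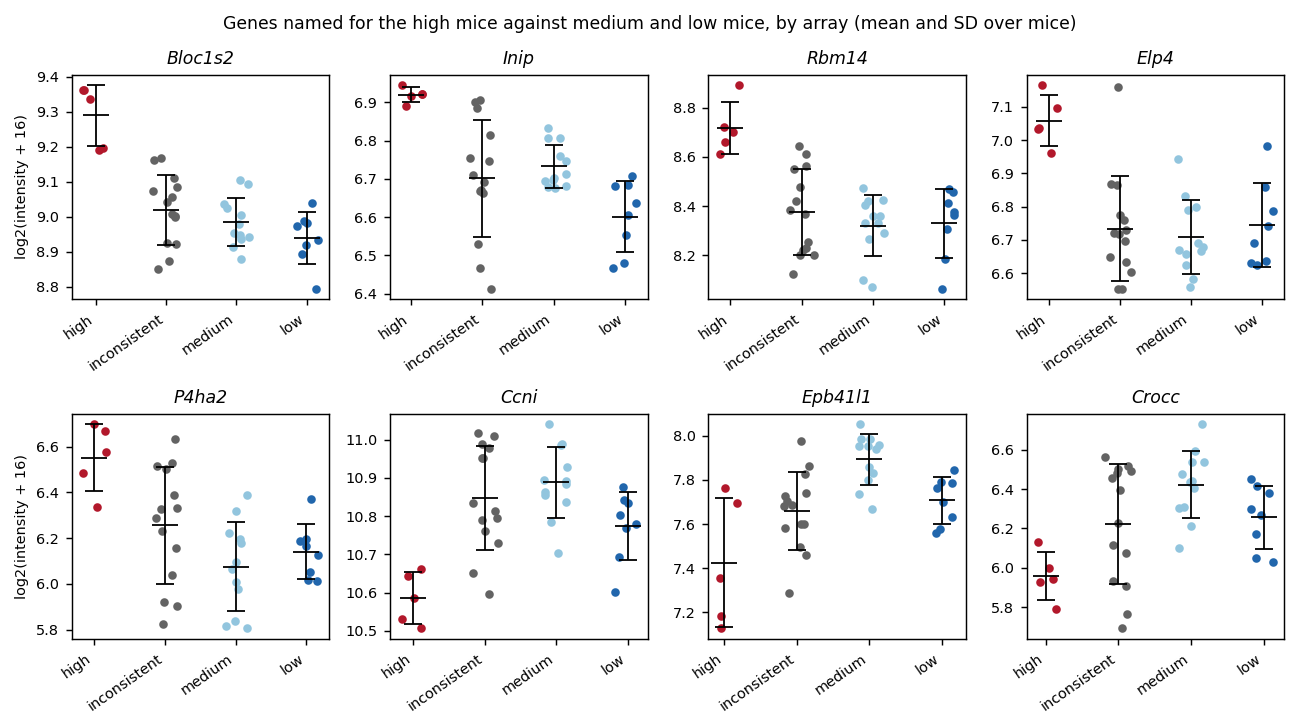
Level, log2(intensity + 16), of 8 genes on each array of the high, inconsistent, medium and low groups, with 1 point per mouse and the mean and SD in black. The 5 high arrays lay above all others for Bloc1s2, while high and inconsistent arrays overlapped for the other 7 genes.

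Among the remaining genes named in earlier comparisons, Lyst, a regulator of lysosome size, came closest to separating the groups. It read 9.31, 9.55, 9.37, 9.54 and 9.31 in high mice and 8.81 to 9.45 in inconsistent mice, with a median of 9.10. Inconsistent replicate 14 was the 1 inconsistent array within the high range, and the 12 medium and 8 low arrays all lay below the high ones. On the log2 scale the difference was 0.34 ± 0.09 (SE), with a limma adjusted p of 0.162. Aifm3, a mitochondrial protein related to the apoptosis-inducing factor, read 6.54, 6.33, 6.30, 6.02 and 6.20 in high mice, against 6.30 to 7.05 in inconsistent mice, with a median of 6.65. Of the inconsistent arrays, 11 lay above all high ones, and the log2 difference was -0.43 ± 0.11 (SE), also at a limma adjusted p of 0.162. The other tested Aifm3 probe set, which was brighter, differed by -0.17. Fgfr3, a fibroblast growth factor receptor found on astrocytes, differed by -0.25, and Npy1r, a receptor of neuropeptide Y, by -0.37. The remaining differences were 0.29 for the adaptor Blnk, 0.18 for the ribonuclease P subunit Pop5, -0.21 for the nuclear pore gene Nup98 and -0.20 for the cyclic GMP phosphodiesterase Pde5a. None of these passed, at limma adjusted p from 0.162 for Fgfr3 to 0.445 for Pde5a.

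The genes with the smallest p against the inconsistent mice included several that earlier comparisons had not named. Of these, Ppil1, Cxadr, Snx5, Stx5a and Tfe3 also passed in high against medium mice, each at a limma adjusted p of 0.0466. Without medium replicate 9 Ppil1 had 0.0439 and the others 0.0647. That contrast shares the 5 high arrays. Ipo11, a nuclear import receptor, read 8.84, 9.10, 8.93, 8.99 and 8.93 in high mice and 8.44 to 8.77 in inconsistent mice, with a median of 8.65. The groups did not overlap, as for Bloc1s2. The log2 difference was 0.32 ± 0.07 (SE), with a limma adjusted p of 0.112 and an exact permutation p of 8.6e-05. Ipo11 was picked for its small p in this contrast, so the permutation p gives no separate support. It restates the lack of overlap, which 30 of 22519 tested probe sets (0.133%) showed in either direction. Medium mice read 8.47 to 8.98 and low mice 8.44 to 8.95, so that their ranges reached into that of the high mice. High mice differed from medium mice by 0.19 and from low mice by 0.20. Within the second spike-in set the Ipo11 difference was 0.11 and within the third 0.39.

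Nedd1 recruits the ring complex that nucleates microtubules. It read 5.92, 6.60, 6.38, 6.20 and 6.29 in high mice and 5.36 to 6.06 in inconsistent mice, with a median of 5.82. High replicate 1 lay within the inconsistent range and the other 4 high arrays above it. Its log2 difference was 0.51 ± 0.11 (SE), a 1.42-fold difference. Limma's adjusted p was 0.112 in all arrays and 0.0469 without high replicate 1. Fmr1 encodes a translational repressor at synapses whose loss causes fragile X syndrome. It read 7.01, 7.62, 7.18, 7.38 and 7.32 in high mice, against 6.51 to 7.18 in inconsistent mice, with a median of 6.88. Of the 14 inconsistent arrays, 10 lay below all high ones, and the log2 difference was 0.46 ± 0.10 (SE), with a limma adjusted p of 0.114. Its other tested probe sets disagreed, at 0.13 ± 0.04 and -0.07 ± 0.16 (SE).

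Gnpnat1, an enzyme of the hexosamine pathway, read 7.71, 7.79, 7.72, 7.92 and 7.59 in high mice and 7.10 to 7.69 in inconsistent mice, with a median of 7.26. A single inconsistent array lay within the high range. This gave a log2 difference of 0.39 ± 0.09 (SE), with a limma adjusted p of 0.121, and the other Gnpnat1 probe sets differed by 0.18 and 0.10. The remaining genes of the 10 with the smallest p in this direction were the mitochondrial transcription termination factor Mterf1a (0.32), the spliceosomal cyclophilin Ppil1 (0.26) and the nuclear pore gene Nup155 (0.29). Their limma adjusted p lay between 0.112 and 0.121.

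In the other direction, Golga7b, a partner of the enzymes that attach palmitate to proteins, read 7.89, 8.08, 7.61, 7.82 and 7.88 in high mice and 8.01 to 8.75 in inconsistent mice, with a median of 8.31. Inconsistent replicate 6 was the 1 array within the high range, and 13 lay above it. On the log2 scale the difference was -0.44 ± 0.09 (SE), a fold of 0.738. Limma's adjusted p was 0.112, and 0.0499 without inconsistent replicate 6. The other Golga7b probe set differed by -0.03. Cxadr, a cell adhesion protein that also serves as a virus receptor, read 5.35, 5.45, 5.74, 5.54 and 5.61 in high mice, against 5.64 to 6.06 in inconsistent mice, with a median of 5.88. All high arrays lay below 12 of the inconsistent ones. Its log2 difference was -0.33 ± 0.07 (SE), with a limma adjusted p of 0.112, and other Cxadr probe sets differed by -0.17 and -0.05.

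Snx5, which sorts cargo from endosomes, and Rmdn3, which tethers mitochondria to the endoplasmic reticulum, differed by -0.37 ± 0.09 and -0.36 ± 0.08 (SE) on the log2 scale. With high replicate 3, the lowest in both, left out these were -0.25 and -0.20. The high mice were far apart from each other in both. Snx5 read 9.41, 8.77, 8.44, 8.81 and 9.18 in high mice, an SD of 0.38, and 9.05 to 9.47 in inconsistent mice, an SD of 0.13. Rmdn3 read 8.82, 8.24, 7.73, 8.32 and 8.66 in high mice, an SD of 0.42, and 8.52 to 8.93 in inconsistent mice, an SD of 0.10. High replicates 1 and 5 lay within the inconsistent range for both genes. Without high replicate 1 limma's adjusted p was 0.00626 for Snx5 and 0.00719 for Rmdn3, against 0.121 and 0.122 with all arrays. Other probe sets gave no such difference, at -0.04, -0.0041 and 0.02 for Snx5 and 0.10 for Rmdn3.

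The remaining genes of the 10 lower in high mice were Tfe3, a transcription factor of lysosome and autophagy genes (-0.36), Gli3 of hedgehog signalling (-0.31), the adaptor Dok7 (-0.38), the histamine-degrading enzyme Hnmt (-0.23) and the Golgi fusion protein Stx5a (-0.30). Together with Ccni they had limma adjusted p from 0.112 to 0.162. For Gli3 the other tested probe set differed by -0.0011.

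**Figure D2:**
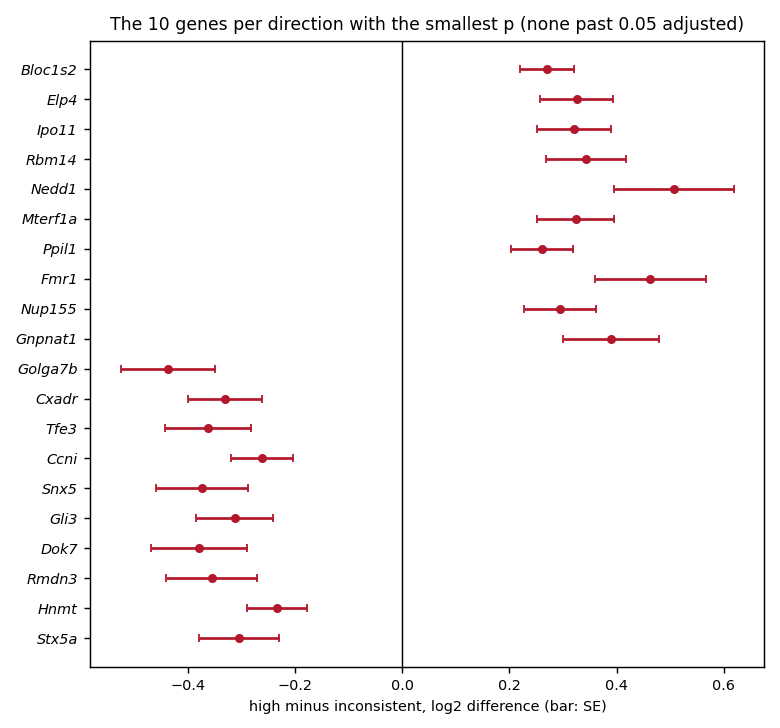
Log2 difference of high minus inconsistent mice with its SE for the 10 genes per direction with the smallest p, those higher in high mice on top. The points lie between -0.44 for Golga7b and 0.51 for Nedd1, and none passed at a limma adjusted p under 0.05 with all arrays.

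The gene lists were read at 1 probe set per gene, the brightest, over 11218 genes. Of these 51.9% had a difference above 0 and 48.1% below 0 in high minus inconsistent mice, with a median of 0.0046, while 6.36% were higher and 5.09% lower at an unadjusted p under 0.05. No list member passed limma's adjusted test, and no list was tested as a whole. None of the listed genes had all 5 high arrays beyond all 14 inconsistent ones.

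Cytosolic chaperone genes had higher means in high mice for 21 of 24 members, with a median log2 difference of 0.11. At an unadjusted p under 0.05 there were 9 higher members and 0 lower. Without high replicate 1 the counts were 18 of 24 with a median of 0.08, and within the third spike-in set 20 of 24 with a median of 0.11. Hsph1, a nucleotide exchange factor of Hsp70, read 11.52, 11.10, 11.28, 11.24 and 11.33 in high mice and 10.90 to 11.57 in inconsistent mice, with a median of 11.05. The highest value in each group was that of high replicate 1 and of inconsistent replicate 5, both in the second spike-in set. The log2 difference was 0.19 ± 0.08 (SE), with a limma adjusted p of 0.355. Dnajb4, a cofactor of Hsp70, differed by 0.18 ± 0.07 and the Hsp90 cochaperone Chordc1 by 0.24 ± 0.10 (SE). The members with differences below 0 were Hspa4 (-0.18), Hsp90aa1 (-0.07) and St13 (-0.07).

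The stress-inducible Hsp70 genes overlapped widely between the groups. Hspa1b read 10.80, 9.39, 9.87, 9.77 and 10.58 in high mice, against 9.29 to 10.66 in inconsistent mice, with a median of 9.54. High replicate 1 lay above all inconsistent arrays, and the other high mice lay within the inconsistent range. Hspa1b differed by 0.35 ± 0.20 and Hspa1a by 0.25 ± 0.15 (SE) on the log2 scale, at limma adjusted p of 0.552 and 0.576, and these near-identical copies may share signal on the array. Against low mice the same high mice differed by 0.70 and 0.48. Dnajb1, an Hsp70 cofactor induced with it, differed by 0.22 ± 0.13 (SE) with a limma adjusted p of 0.544. Without high replicate 1 the differences of Hspa1b, Hspa1a and Dnajb1 were 0.17, 0.09 and 0.13.

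Genes of endoplasmic reticulum chaperones and the unfolded protein response were above 0 in 17 of 23, with a median of 0.12, and 8 were higher and 0 lower at an unadjusted p under 0.05. Without high replicate 1 the counts were 15 of 23 with a median of 0.07, and within the third spike-in set 15 of 23 with a median of 0.11. Creld2, a secreted protein disulfide isomerase of this compartment, read 8.41, 7.89, 7.98, 7.52 and 7.83 in high mice and 7.02 to 8.16 in inconsistent mice, with a median of 7.50. The 8 lowest inconsistent arrays lay below all high ones. This gave a log2 difference of 0.44 ± 0.16 (SE), with a limma adjusted p of 0.309. Manf, a secreted stress factor, read 10.59, 10.08, 10.28, 9.91 and 10.17 in high mice, against 9.46 to 10.47 in inconsistent mice, with a median of 9.81. The groups overlapped between 9.91 and 10.47, and the difference was 0.35 ± 0.13 (SE), with a limma adjusted p of 0.332. Dnajb11, a cofactor of the chaperone Hspa5, differed by 0.25 ± 0.09 (SE).

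Promoter windows of 20 of the 23 genes in this list were in RefSeq's annotation of GRCm38.p6, from 250 bases before to 50 after the start site. The stress element was searched on both strands as CCAAT and CCACG with 9 bases between them. It was in a window of 8 of the 20 genes (40%) and of 37 of all 27025 genes with windows (0.137%). The list was drawn up from known targets of the response, so this share is a description and not a finding. Their differences were 0.44 for Creld2, 0.30 for Hspa5, 0.30 for Pdia6, 0.11 for Dnajc3, 0.02 for Hsp90b1, -0.01 for Calr, -0.03 for Canx and -0.06 for Syvn1, a median of 0.07. The 12 genes with no match had a median of 0.12, with 10 above 0. A heat shock element, GAA, TTC and GAA with 2 bases between each, was searched the same way and was in 2 of 20 matched cytosolic chaperone genes, Hsph1 and Chordc1, and in 0.662% of all genes with windows. The stress element was in 0 of those 20.

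The 200 bases before the start site are shown for the 3 holders of the stress element with an unadjusted p under 0.05, with the match in capitals. Hspa5, the main chaperone of the endoplasmic reticulum, lies on the plus strand at chr2:34771890-34772089. Creld2 lies on the plus strand at chr15:88819446-88819645, with the match on the opposite strand. Pdia6, a disulfide isomerase, lies on the plus strand at chr12:17266389-17266588.
Hspa5: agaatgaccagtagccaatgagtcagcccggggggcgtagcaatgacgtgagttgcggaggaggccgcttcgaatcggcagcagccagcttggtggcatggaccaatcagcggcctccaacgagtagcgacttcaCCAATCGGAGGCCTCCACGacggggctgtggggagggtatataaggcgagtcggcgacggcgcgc
Creld2: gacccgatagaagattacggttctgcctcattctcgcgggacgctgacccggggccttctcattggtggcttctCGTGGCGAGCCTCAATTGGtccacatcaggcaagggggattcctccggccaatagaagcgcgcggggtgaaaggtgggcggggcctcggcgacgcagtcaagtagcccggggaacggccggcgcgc
Pdia6: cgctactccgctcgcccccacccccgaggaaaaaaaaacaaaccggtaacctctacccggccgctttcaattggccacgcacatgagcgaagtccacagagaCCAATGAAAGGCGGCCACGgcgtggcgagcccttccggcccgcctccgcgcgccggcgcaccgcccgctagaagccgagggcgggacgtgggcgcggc

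The match began 65 bases before the start site in Hspa5, 126 before in Creld2 and 98 before in Pdia6. A match of letters is a description of the window and shows no binding.

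Mitochondrial chaperones were above 0 in 5 of 9, with a median of 0.02. Hspe1, the cochaperonin of the mitochondrial matrix, read 10.82, 10.58, 10.79, 10.67 and 10.64 in high mice and 10.37 to 10.72 in inconsistent mice, with a median of 10.51. The 10 lowest inconsistent arrays lay below all high ones. On the log2 scale the difference was 0.16 ± 0.05 (SE), with a limma adjusted p of 0.290, while its partner Hspd1 differed by 0.03. Against medium mice Hspe1 differed by 0.27 in high mice, which passed at a limma adjusted p of 0.0466, and by 0.11 in inconsistent mice. Without medium replicate 9 the difference of high from medium mice was 0.25, with a limma adjusted p of 0.0647.

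**Figure D3:**
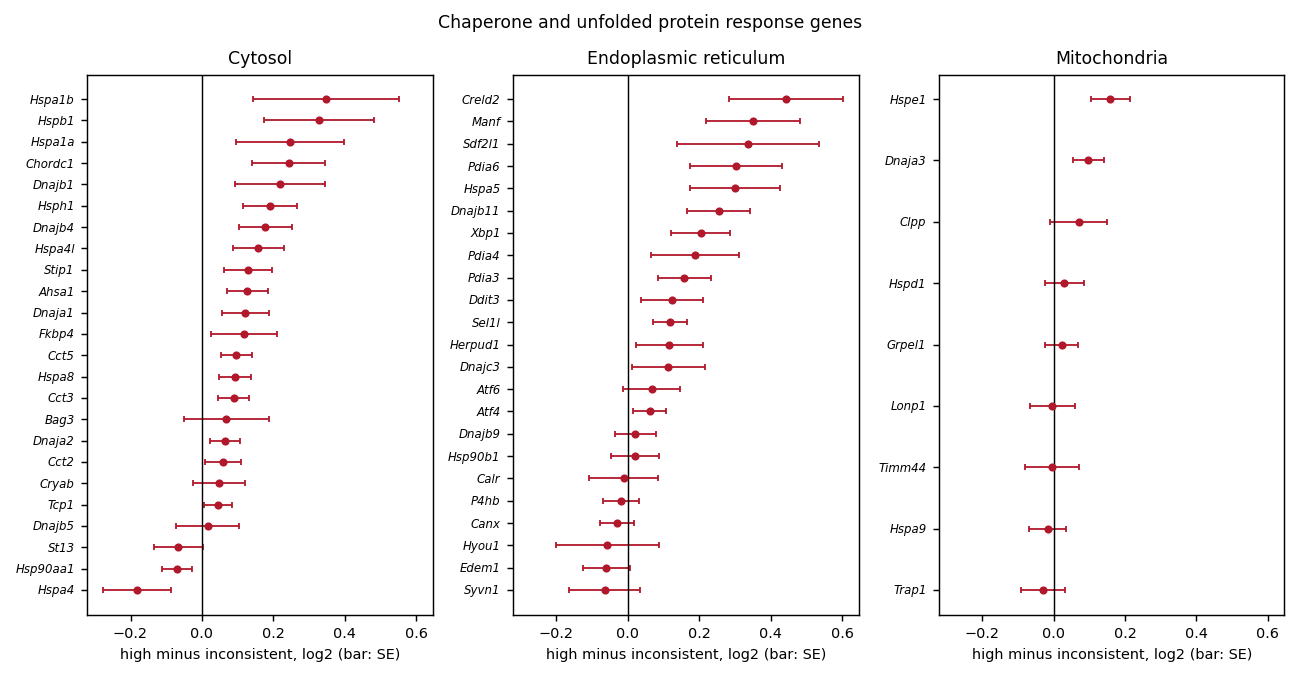
Log2 difference of high minus inconsistent mice with its SE for the tested chaperone and unfolded protein response genes of the cytosol, endoplasmic reticulum and mitochondria. Of the 24 cytosolic genes 21 lay above 0, of the 23 endoplasmic reticulum genes 17 and of the 9 mitochondrial genes 5.

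Proteasome subunits, which make up the machine that degrades tagged proteins, were above 0 in 26 of 31 with a small median of 0.03. Psmb4, a subunit of its catalytic core, read 11.54, 11.53, 11.64, 11.61 and 11.61 in high mice and 11.31 to 11.56 in inconsistent mice, with a median of 11.48. Psmb4 differed by 0.12 ± 0.04 (SE) on the log2 scale, with a limma adjusted p of 0.274. Psmd6 and Psma3 differed by 0.08 and 0.09. Respiratory chain genes were above 0 in 32 of 45, with a median of 0.03, and 2 were higher and 1 lower at an unadjusted p under 0.05. Those higher were subunits of succinate dehydrogenase. Sdhd read 10.12, 10.22, 10.19, 10.23 and 10.11 in high mice, against 9.94 to 10.15 in inconsistent mice, with a median of 10.02, and differed by 0.14 ± 0.05 (SE). Sdhb differed by 0.11 ± 0.05 (SE). The medians of both lists lay within 0.03 of that of all genes.

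Glucocorticoid-responsive genes, induced by the stress hormone corticosterone, were above 0 in 16 of 18, with a median of 0.18. Only 2 of them, Klf9 and Nfkbia, were higher at an unadjusted p under 0.05. Klf9, a transcription factor, read 11.86, 11.91, 12.08, 12.14 and 12.06 in high mice and 11.54 to 12.01 in inconsistent mice, with a median of 11.72. The log2 difference was 0.25 ± 0.08 (SE), with a limma adjusted p of 0.269. The list mean per array was 9.04 to 9.39 in high mice, with a median of 9.21, and 8.69 to 9.38 in inconsistent mice, with a median of 8.98, so that every high mouse lay within the inconsistent range but for the highest. Within the second spike-in set, of 1 high and 2 inconsistent arrays, the list median was -0.02, and within the third 0.17. Without high replicate 1 it was 0.13, with 14 of 18 above 0.

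Immediate early genes lay on both sides of 0 against the inconsistent mice. Of 29 genes 13 were above 0, with a median of -0.01, against medians of 0.17 for high minus medium mice and 0.14 for inconsistent minus medium mice. The sign of the first depended on the setting. With the spike-in set as a block the median was 0.09 with 19 of 29 above 0, within the second set 0.08 with 24 and within the third 0.07 with 19. With 1 array left out it ran from -0.06 without high replicate 5 to 0.05 without high replicate 2. Fos read 8.64, 8.60, 9.18, 9.61 and 9.85 in high mice and 7.95 to 10.32 in inconsistent mice, with a median of 9.58. Arc read 8.88, 8.29, 8.52, 8.70 and 9.05 in high mice and 7.80 to 9.71 in inconsistent mice, with a median of 8.91. The inconsistent mice spanned the high ones on both sides, with differences of -0.08 ± 0.43 for Fos and -0.14 ± 0.32 for Arc (SE). Slower activity-dependent genes were among the 5 members higher at an unadjusted p under 0.05. Pcsk1, which processes prohormones, read 6.79, 6.87, 6.79, 7.03 and 7.00 in high mice, against 5.89 to 6.88 in inconsistent mice, with a median of 6.47. It differed by 0.40 ± 0.12 (SE), with a limma adjusted p of 0.231, and by 0.10 against low mice. Inhba, an activin subunit, differed by 0.54 ± 0.22 (SE), and high replicate 1 and inconsistent replicate 5 were the highest arrays of their groups.

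Bdnf, the neurotrophin of synaptic plasticity, read 9.27, 9.26, 9.34, 9.22 and 9.31 in high mice and 8.77 to 9.28 in inconsistent mice, with a median of 9.09. The 11 lowest inconsistent arrays lay below all high ones. Bdnf differed by 0.21 ± 0.08 (SE) on the log2 scale, with a limma adjusted p of 0.344, and the other Bdnf probe set differed by 0.06. High mice differed from medium mice by 0.35 and inconsistent mice from medium mice by 0.14. Synaptic vesicle genes were below 0 in 18 of 26, with a median of -0.02. Sv2a, a vesicle glycoprotein, read 9.64, 9.52, 9.73, 9.71 and 9.66 in high mice and 9.63 to 9.94 in inconsistent mice, with a median of 9.83. Of the inconsistent arrays, 12 lay above all high ones, and the log2 difference was -0.16 ± 0.07 (SE), with a limma adjusted p of 0.419. Slc17a6, a vesicular glutamate transporter that was also listed as a thalamus marker, differed by 0.28 ± 0.16 (SE).

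**Figure D4:**
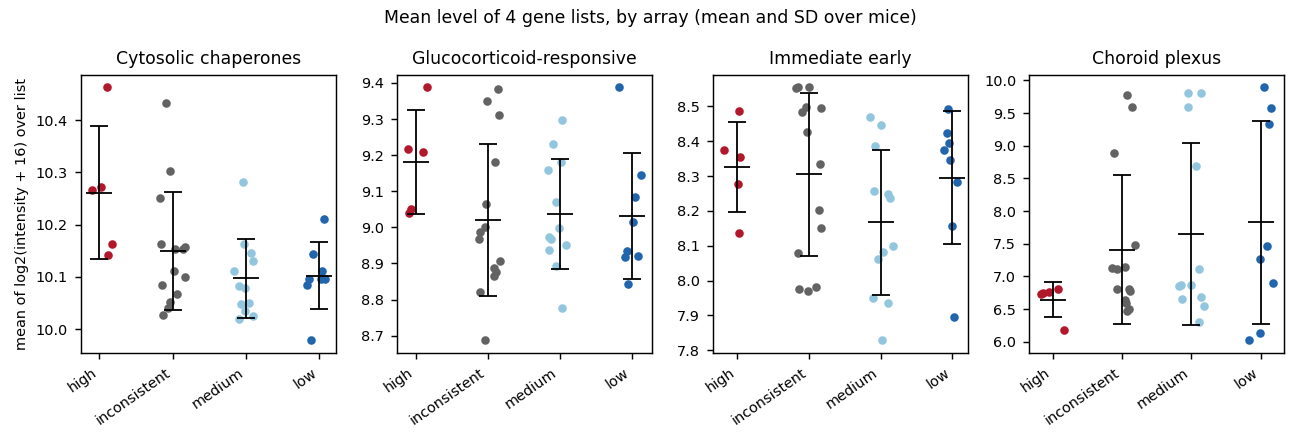
Mean level, log2(intensity + 16), of 4 gene lists on each array of the high, inconsistent, medium and low groups, with 1 point per mouse and the mean and SD in black. For choroid plexus markers 0 of 5 high and 3 of 14 inconsistent arrays were bright, and in each list the high arrays lay at least in part within the inconsistent range.

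Transcripts of the epigenetic machinery were described because the series concerns genes under epigenetic control. No epigenetic mark was measured. Of 15 histone acetyltransferases 9 were above 0, with a median of 0.05. Crebbp, the coactivator CBP, read 9.33, 9.55, 9.42, 9.49 and 9.46 in high mice and 9.00 to 9.42 in inconsistent mice, with a median of 9.25. Of the inconsistent arrays, 12 lay below all high ones. This gave a log2 difference of 0.22 ± 0.05 (SE), with a limma adjusted p of 0.162, but other Crebbp probe sets differed by -0.0032 and 0.04. Kat6b differed by -0.16, and by -0.07 without high replicate 3. Ncoa1, a steroid receptor coactivator, differed by 0.15.

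Histone deacetylases and sirtuins were above 0 in 5 of 18, with a median of -0.04, and 1 was higher and 3 lower at an unadjusted p under 0.05. Sirt2, a deacetylase of oligodendrocytes among other cells, read 9.29, 9.42, 9.20, 9.23 and 9.14 in high mice and 9.21 to 9.69 in inconsistent mice, with a median of 9.48. Sirt2 differed by -0.21 ± 0.07 (SE) on the log2 scale, with a limma adjusted p of 0.273. Hdac5 differed by -0.17 and Hdac4 by 0.24. Hdac2, which restrains memory genes in mouse neurons, differed by -0.01 ± 0.05 (SE). Of 35 histone methyltransferases and demethylases 18 were above 0, with a median of 0.0018, and 6 were higher and 0 lower at an unadjusted p under 0.05. Among these Kdm3a, a demethylase of histone H3 lysine residues, read 8.79, 8.71, 8.71, 8.61 and 8.64 in high mice, against 8.27 to 8.75 in inconsistent mice, with a median of 8.48, and differed by 0.22 ± 0.07 (SE). Phf8 differed by 0.15.

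DNA methylation genes were above 0 in 6 of 12, with a median of -0.0009. The maintenance methyltransferase Dnmt1 read 7.70, 7.54, 7.68, 7.73 and 7.37 in high mice and 7.38 to 7.90 in inconsistent mice, with a median of 7.67. The de novo enzyme Dnmt3a read 7.62, 7.68, 7.84, 7.61 and 7.91 in high mice and 7.48 to 7.93 in inconsistent mice, with a median of 7.75. Both groups covered nearly the same range, with differences of -0.06 ± 0.07 for Dnmt1 and 0.01 ± 0.08 for Dnmt3a (SE). Other Dnmt3a probe sets differed by -0.14, -0.23 and 0.08. Zbtb33, which encodes the methyl-binding protein Kaiso, read 9.47, 9.48, 9.50, 9.42 and 9.51 in high mice, against 9.17 to 9.45 in inconsistent mice, with a median of 9.31. It differed by 0.16 ± 0.05 (SE), with a limma adjusted p of 0.277, and Gadd45a, linked to DNA demethylation, differed by 0.23.

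Choroid plexus markers had lower means in high mice for 8 of 8 tested genes, with a median of -0.67. In bulk tissue fewer cells of a type and less RNA per cell cannot be told apart. The list mean was 6.73, 6.81, 6.76, 6.17 and 6.74 in the high mice, and 6.46 to 9.77 in the inconsistent mice, with a median of 6.97. Inconsistent replicates 10, 12 and 13 were bright, at 8.89, 9.60 and 9.77. Without the arrays bright in these markers the median difference was -0.12, with 1 of 8 above 0. Over all alternatives the list median ran from -1.05 to 0.16, and it was above 0 in 1 of them. Ttr, the thyroid hormone carrier made there, read 11.08, 8.80, 10.93, 8.50 and 10.23 in high mice and 9.23 to 13.32 in inconsistent mice, with a median of 11.40. On the log2 scale the difference was -1.49 ± 0.86 (SE), with a limma adjusted p of 0.539. Clic6 differed by -1.04 and Igfbp2 by -0.48.

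Leaving out the choroid-bright arrays gave list medians of 0.10 for cytosolic and 0.09 for endoplasmic reticulum chaperones and 0.15 for glucocorticoid-responsive genes, against 0.11, 0.12 and 0.18 with all arrays. The part of choroid plexus tissue in these results was not tested.

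Myelin genes were below 0 in 9 of 9, with a small median of -0.08. With arrays centred on their medians, 5 of 9 lay above 0 and the median was 0.0022. In that setting the median of all probe sets rose as well, and the myelin median still lay below it. Without high replicate 4 the median was -0.05. Opalin, a membrane protein of oligodendrocytes, read 7.45, 7.78, 7.86, 7.78 and 7.87 in high mice and 7.45 to 8.55 in inconsistent mice, with a median of 8.21. Opalin differed by -0.37 ± 0.16 (SE) on the log2 scale, with a limma adjusted p of 0.406. Mag differed by -0.14, and Mbp, a main protein of myelin, by -0.05 ± 0.03 (SE). Markers of CA pyramidal cells were below 0 in 7 of 8, with a median of -0.07. Fibcd1, a CA1 marker, differed by -0.23 ± 0.22 (SE), Pou3f1 by -0.13 and Prkcd, also listed as a thalamus marker, by -0.11. The dentate granule marker Prox1 differed by 0.08 ± 0.17 (SE) and the astrocyte marker Gfap by -0.04 ± 0.17 (SE). None of these genes passed limma's adjusted test, and the part of these markers in the other results was not tested.

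Of the 7 tested striatal markers, which gauge how much neighbouring tissue a dissection holds, 5 were below 0, with a median of -0.17, and of -0.09 without high replicate 2. At an unadjusted p under 0.05, 1 was higher and 3 lower. Ppp1r1b, the phosphoprotein DARPP-32, read 7.37, 7.03, 6.89, 7.03 and 7.12 in high mice and 6.71 to 7.90 in inconsistent mice, with a median of 7.38. The log2 difference was -0.30 ± 0.20 (SE), with a limma adjusted p of 0.622. Rgs9 differed by -0.28 and the neuropeptide gene Tac1 by -0.22, while Pde10a differed by 0.28. Without high replicate 2 Tac1 differed by -0.09. Tac1 ran from 8.49 to 9.41 over the high mice and from 8.96 to 9.42 over the inconsistent mice.

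Across the 16 lists described, the medians against inconsistent, medium and low mice use the same 5 high arrays. For cytosolic chaperones they were 0.11, 0.14 and 0.13 in that order. For the endoplasmic reticulum list they were 0.12, 0.13 and 0.11, and for glucocorticoid-responsive genes 0.18, 0.12 and 0.15. Immediate early genes had 0.17 against medium mice alone, beside -0.01 and 0.02. Without medium replicate 9 the medians against medium mice were 0.13 for both chaperone lists, 0.09 for glucocorticoid-responsive and 0.14 for immediate early genes. Inconsistent minus medium mice had medians of 0.04 for cytosolic and 0.03 for endoplasmic reticulum chaperones and -0.03 for glucocorticoid-responsive genes, a comparison that holds no high array. The lists not described here, of other cell types, receptors, kinases and pathways, had medians against inconsistent mice from -0.09 for meningeal markers to 0.19 for the 1 tested red blood cell marker.

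**Figure D5:**
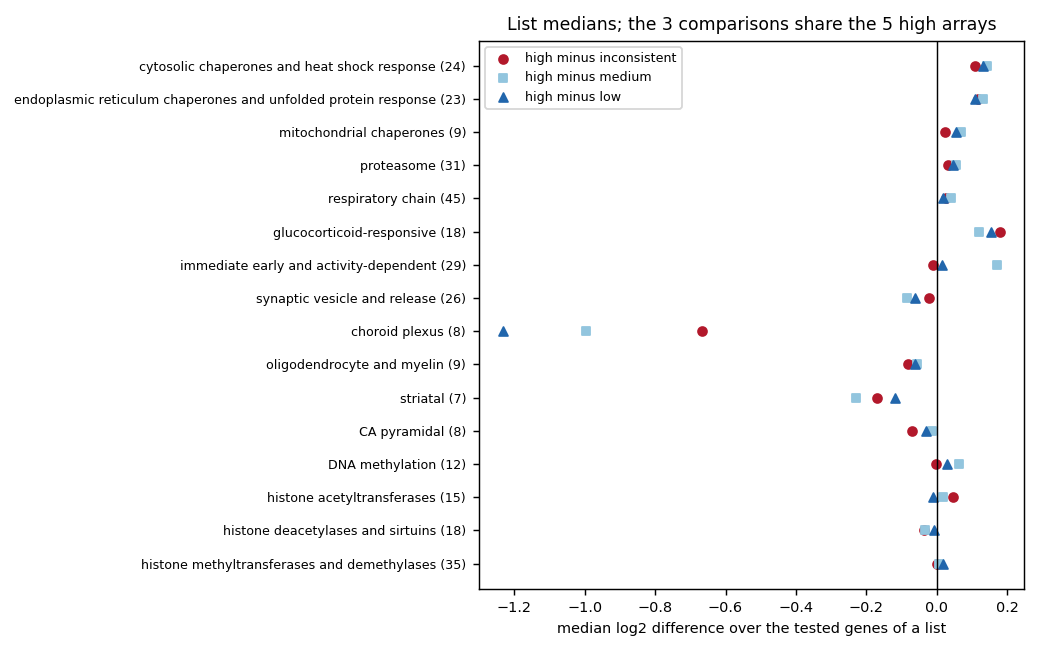
Median log2 difference over the tested genes of 16 lists for high minus inconsistent, high minus medium and high minus low mice, with the number of genes tested in brackets. Choroid plexus markers lie farthest below 0, at -0.67 against inconsistent mice, and glucocorticoid-responsive genes farthest above 0, at 0.18. With medium replicate 9, as plotted, the medians against medium mice were -0.23 for striatal and -0.01 for CA pyramidal markers. Without it they were -0.17 and -0.09.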

How the data were processed

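Hippocampal RNA of each mouse was hybridized to 1 Affymetrix mouse array. Partek and RMA are named in the submitters' processing notes, without saying which made the deposited intensity values. Those intensities ran from 0.0112 to 13549 and were therefore taken as linear, where the design had assumed log2 values. They were quantile-normalized across all 41 arrays and transformed as log2(intensity + 16). Of 45101 probe sets, 64 controls were left out, and the 22519 at or above the median of mean level were tested. The number of arrays limits the precision.

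All 41 arrays entered 1 limma 3.58.1 fit in R 4.3.3, with a mean per labelled group and 36 residual degrees of freedom. The contrast of high minus inconsistent was adjusted by Benjamini-Hochberg over all tested probe sets. The platform annotation gave 1 symbol to 34945 probe sets, several to 932 and none to 9160. Genes were named as the 10 with the smallest p per direction, genes of earlier comparisons, up to 3 members with the smallest p in each described list, and 16 genes fixed regardless of value. The members and lists were chosen with earlier results of these data known. The limma fit alone was run on simulated data with independent noise for each probe set. Normalization, filter, lists and the permutation test were not part of that run. Alternatives covered filter, normalization, offset, variance model, weights, arrays in the fit, blocks and left-out arrays. Leaving out medium replicate 9 was added after seeing the data.

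Replicate numbers did not pair the mice. Deviations of same-numbered high and inconsistent arrays correlated at -0.21 to 0.09 over 5 pairs.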

Additional observations from a re-analysis of the deposited data

Results flagged for a closer look

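Among the 5 high mice, single arrays lay far from the others for 4 genes and 1 list mean of the 101 values examined. The limit used is one that about 1 group in 20 passes by chance, and these values are not independent of each other. High replicate 1 accounted for 3 of them. Cdkn1a, a cell cycle inhibitor that glucocorticoids induce, read 7.54 there and 6.69 to 6.89 in the other high mice. Opalin read 7.45 there and 7.78 to 7.87 in the others. Pde5a read 6.19 there and 5.90 to 5.94 in the others. Prkcd read 7.58 in high replicate 2, against 7.13 to 7.21 in the other high mice. The mean of the choroid plexus markers was 6.17 in high replicate 4, against 6.73 to 6.81 in the others, so that array was low in these markers.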

How the results depend on the processing

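The count of probe sets past limma's threshold, 0 in the fit reported, was 123 with array weights (65 higher, 58 lower). It was 1 without the filter on dim probe sets, where the called probe set has no single symbol, and 1, for Bloc1s2, with the filter at the 75th percentile, an offset of 50, 1 probe set per gene or the 39 arrays with complete data. It was 3 without medium replicate 9, an alternative chosen after seeing the data. With 1 high or inconsistent array left out it ran from 0 to 5, highest without high replicate 1 (Bloc1s2, Nedd1, Snx5, Rmdn3 and a probe set without a single symbol). It was 1 without inconsistent replicate 1, 9 or 14 and 2 without inconsistent replicate 6. The remaining alternatives gave 0, with 136 (no normalization) to 3986 (arrays centred on their medians) at an unadjusted p under 0.05. These included the spike-in block, leaving out the choroid-bright arrays, and leaving out or moving the second inconsistent mouse. With the replicate block, which pairs 5 high with 5 inconsistent mice by number only, the count was also 0, with 3269 at an unadjusted p under 0.05.

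Centring arrays on their medians moved the median of all probe sets to 0.076. List medians were then 0.223 for cytosolic chaperones, 0.213 endoplasmic reticulum, 0.244 glucocorticoid-responsive, 0.102 immediate early, 0.018 deacetylases, 0.0022 myelin, 0.132 mitochondrial chaperones, 0.158 proteasome, 0.138 respiratory chain, 0.092 synaptic vesicle, -0.068 striatal, 0.046 CA pyramidal, 0.081 DNA methylation, 0.145 acetyltransferases and 0.103 methyltransferases with demethylases. Dnmt1 was at 0.0059, Fos 0.034, Gfap 0.075 and Hdac2 0.111. Without normalization the medians were 0.075, 0.100, 0.081 and 0.035 for mitochondrial chaperones, proteasome, respiratory chain and synaptic vesicle, 0.088 for acetyltransferases and 0.045 for methyltransferases with demethylases, with Gfap at 0.018 and Hdac2 at 0.053. Under the replicate block the medians were -0.0091 for mitochondrial chaperones, 0.076 proteasome, 0.060 respiratory chain, -0.099 immediate early and -0.158 CA pyramidal, with Dnmt3a at -0.061, Gfap 0.040 and Prox1 -0.137. Array weights gave Fos 0.030 and Hdac2 0.0037. The spike-in block gave Arc 0.087, Fos 0.175 and Hdac2 0.0046. Without choroid-bright arrays Fos was at 0.078 and the acetyltransferase median 0.076, and with the 75th percentile filter the striatal median was -0.055.

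Within spike-in set 2, of 1 high and 2 inconsistent arrays, the median was -0.022 for glucocorticoid-responsive genes and -0.0061 for acetyltransferases. Signs turned for Arc (0.0043), Clic6 (0.315), Dnmt1 (0.045), Dnmt3a (-0.088), Epb41l1 (0.047), Fos (0.094), Hnmt (0.066), Klf9 (-0.0028), Mbp (0.020), Ncoa1 (-0.0061), Nfkbia (-0.087), Snx5 (0.131), Tac1 (0.024) and Ttr (0.786). Within set 3 Arc was at 0.092 and Fos at 0.169. With 1 array left out the sign also turned in genes close to 0. Fos ran from -0.243 to 0.069, Hdac2 from -0.038 to 0.027, Dnmt3a from -0.036 to 0.039, Gfap from -0.119 to 0.018 and Dnmt1 from -0.086 to 0.0046. Over all, leaving out 1 array moved 15 of 85 gene differences and 10 of 16 list medians by over 1.5 times or across 0. The cause of these changes was not tested. Of 3272 gene values under alternatives, 47 changed sign, in 17 of 85 genes, and 40 passed the threshold, 25 of them under array weights.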
